A study of Mus musculus with 16 samples.

Results

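The telomerase and shelterin genes Tert, Dkc1, Terf1, Terf2, Terf2ip, Tinf2, Pot1a, Pot1b and Rif1 were selected by gene name from the expression table of 16 mouse pluripotent cell lines. All 9 were found among its 22552 genes, and all 9 were among the 13185 genes that were tested, whose mean FPKM was 0.5 or more. FPKM is the number of fragments of a gene per kilobase of transcript, scaled to the mapped fragments of the library, so the levels of different genes can be set side by side. Differences between groups are given as log2 fold change, the difference in mean log2(FPKM + 1). RNA was sequenced from 1 library per cell line, and a cell line is the replicate.

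The lines were made from adipocyte progenitor cells (APCs) of all-iPSC mice, with the strain label 129-M2rtTA, by a pair of methods. AN lines are nuclear transfer embryonic stem cells (ntESCs) from blastocysts cloned with APC nuclei, and AI lines are induced pluripotent stem cells (iPSCs) made by giving APCs doxycycline. Both kinds of line carry the same insertion of inducible reprogramming factors, also the AN lines, in which the factors were not used to make the line. Fully (F) and partially (P) reprogrammed lines differ by their outcome in tetraploid complementation, in which the injected cells must form the whole embryo. The 4 AN F lines were AN1, AN9, AN15 and AN20, and the 5 AN P lines were AN2, AN3, AN5, AN6 and AN7, all at passage 5 to 7. The 4 AI F lines were AI3, AI7, AI10 and GS32, and the 3 AI P lines were AI9, GS4 and GS9. AI3, AI7, AI9 and AI10 were newly derived and at passage 7, whereas GS4, GS9 and GS32 were previously identified lines at passages 17, 6 and 13. The source entries of GS9 and GS32 name GS4 against their titles, and the main differences that rest on these lines are also given without them. The labels give the name of a line and the method, and the study assigns F or P by line name. Nothing in the labels says that lines came from separate donor animals, so p-values measure only the spread between these lines.

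Telomeres are the repeat arrays at chromosome ends. Telomerase extends them: Tert is the reverse transcriptase, the RNA Terc carries the template, and dyskerin (Dkc1) binds and stabilizes that RNA together with Nop10, Nhp2 and Gar1. Shelterin covers the ends: Terf1 and Terf2 bind the double-stranded repeats, Tinf2 joins them to the Acd and Pot1 proteins, Pot1 binds the single-stranded overhang, and Terf2ip (Rap1) binds Terf2. Pluripotent mouse cells keep telomerase active, whereas most somatic cells express little Tert. Rif1, which is not among the subunits of telomerase or shelterin named above, was first known as a telomere protein in yeast. In mammals it acts in replication timing and in repair of double-strand breaks.

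In these lines, 0 of the 9 genes differed between fully and partially reprogrammed lines, or between AN and AI, at an adjusted p under 0.05 (limma, Benjamini-Hochberg over 13185 genes), and neither did any other gene tested. The differences with the smallest p were Rif1 in the AN lines, Tert and Pot1a in the AI lines, and Pot1b and Tinf2 between AN and AI. The pluripotency markers were abundant in every line, with a summed FPKM of 2751 to 5177 over 10 genes. Between AI F and AI P, 7 of 10 had a negative log2 fold change, with a median of -0.37. Between AN F and AN P, 7 of 10 were positive, with a median of 0.05. The summed FPKM of 10 fibroblast markers ranged from 247.0 to 1342 and was lowest in GS9 and GS4. Between AI F and AI P, 10 of 10 fibroblast markers had a positive log2 fold change with a median of 1.04, and the sums were 598.7 to 1342 in AI F and 247.0 to 1093 in AI P, none of the markers being at 0. In the AN lines the sums were 473.8 to 969.2 in AN F and 612.1 to 1255 in AN P. Markers of extraembryonic endoderm summed to 4.53 to 14.4 FPKM, with Sox17 and Sox7 too low to test, and those of adipocyte progenitors to 16.3 to 35.8, with Pparg too low to test. Blastocysts for the AN lines were plated on a feeder layer of embryonic fibroblasts, and whether feeder cells were removed before RNA extraction is not given in the sources used here. In bulk RNA, fewer cells of a type and less RNA per cell cannot be told apart. Table values carry no depth of their own. The spacing of low values put the depth of the lines at 0.961 to 1.26 times that of AN1, and the reads behind single genes are estimates from this spacing over 44 long genes.

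The members covered a wide range of levels. Dkc1 had the highest mean over the 16 lines, at 175.5 FPKM (SD 29.5, n = 16), followed by Terf1 at 105.9 ± 34.1, Rif1 at 44.5 ± 13.1, Tinf2 at 19.9 ± 2.64, Terf2 at 15.1 ± 2.35, Pot1a at 11.1 ± 2.03, Terf2ip at 8.90 ± 1.12, Pot1b at 3.70 ± 0.523 and Tert at 2.15 ± 0.491 (all SD over 16 lines). Dkc1 lay above 95.3% of the genes tested in level, and Tert above 20.5%. The ranges over lines did not overlap between Rif1 and Tinf2, between Terf2ip and Pot1b, or between Pot1b and Tert, whereas the other neighbours in this order overlapped. Within single lines the order was kept more closely: Dkc1 was above Terf1 in all 16 lines, Terf2 was above Pot1a in 14 and Pot1a above Terf2ip in 15. Among the 500 genes closest to it in mean level, Rif1 varied more between lines than 91.6%, and Terf1 more than 85.2%. Pot1b and Terf2ip were among the steadier genes, varying more than 16.6% and 20.4% of their neighbours in level. This is a description of the lines, and the lines behind the spread of Rif1 and Terf1 are given with these genes.

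**Figure D1:**
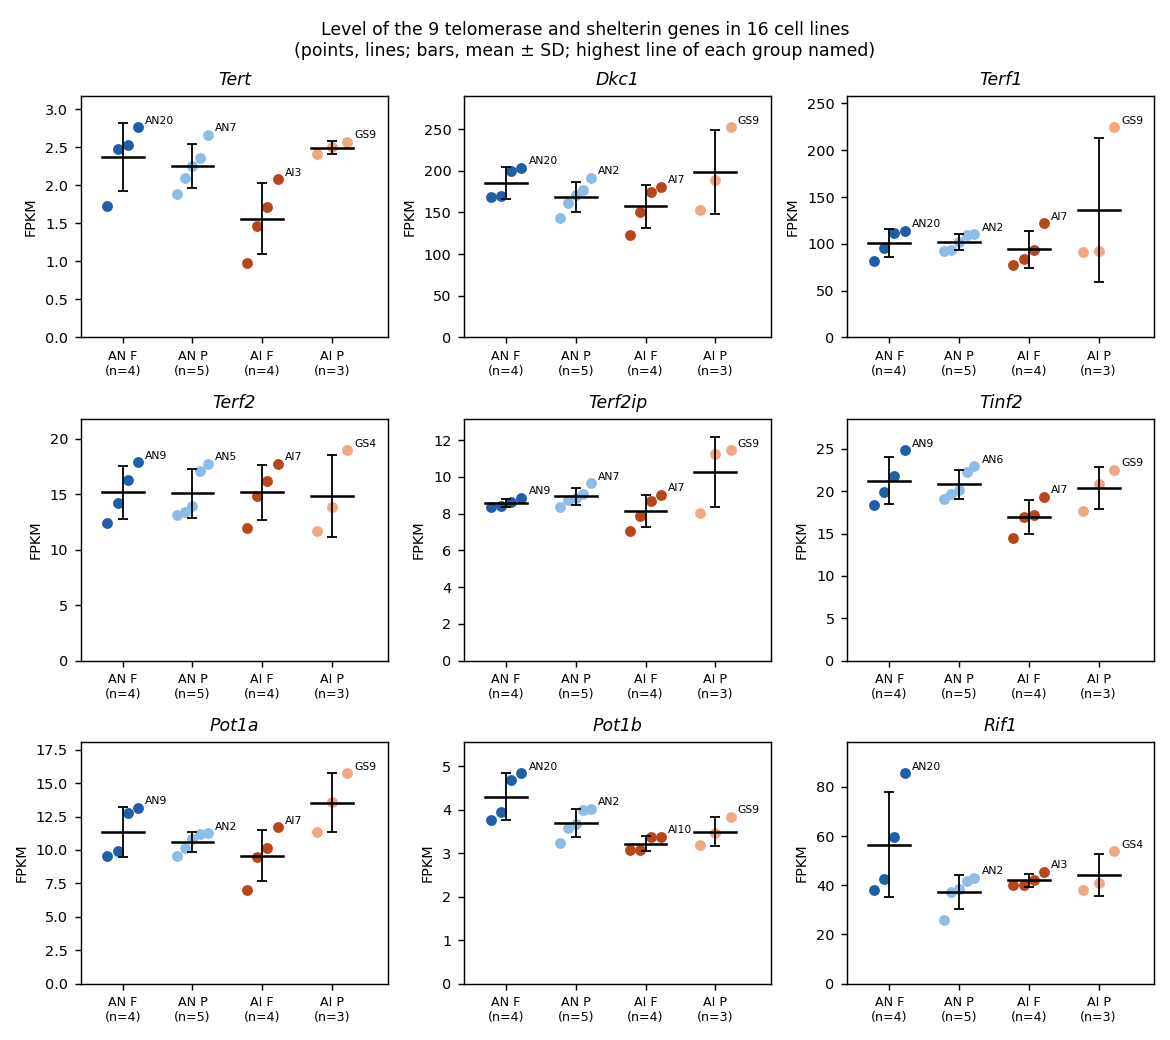
FPKM of the 9 genes (vertical axes from 0) in the lines of the 4 groups, with 1 point per line and bars for the mean ± SD. GS9 stands at 224.7 FPKM for Terf1 and AN20 at 85.4 for Rif1, and the 4 AI F points of Tert lie below the 3 AI P points.

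Tert (chr13:73764449-73786489, + strand, mm9) has 3 annotated transcripts with 3 to 17 exons, and no other annotated gene overlaps it. In AN F the FPKM of Tert was 1.73 in AN1, 2.53 in AN9, 2.47 in AN15 and 2.76 in AN20. In AN P it was 1.88 in AN2, 2.25 in AN3, 2.35 in AN5, 2.09 in AN6 and 2.67 in AN7. The AN groups overlapped, AN1 being the lowest of all 9 lines, and the log2 fold change of AN F against AN P was 0.05 (95% confidence interval -0.20 to 0.30, limma; adjusted p = 0.885). In AI F the FPKM of Tert was 2.08 in AI3, 1.72 in AI7, 0.970 in AI10 and 1.47 in GS32. The AI P lines AI9, GS4 and GS9 had 2.41, 2.50 and 2.57. All 4 AI F lines were below all 3 AI P lines, as were 3.19% of the genes tested in the same comparison. The mean was 1.56 ± 0.465 FPKM for AI F (SD, n = 4), against 2.49 ± 0.0826 for AI P (SD, n = 3), a log2 fold change of -0.47 ± 0.16 (SE; 95% confidence interval -0.84 to -0.10). It did not pass the adjusted threshold (unadjusted p = 0.0194, adjusted p = 0.521, limma), and an exact two-sided permutation test gave p = 0.0571, the smallest p that 35 splits of 7 lines can give.

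The AI P lines lay in the range of the AN lines for Tert, and AI10 was the lowest of all 16 lines. By the depth estimate, about 90 reads stood behind the AI10 value and 130 to 259 behind the other 15, which is a counting error of 10.55% for AI10 and 6.22% to 8.78% for the others (counting error only). Since all 4 AI F lines were below all 3 AI P lines, the newly derived and the previously identified lines had to give the same direction. The split shows only the size of the difference in each set. Among newly derived lines, the 3 AI F lines had a mean log2 difference of -0.42 from AI9, and among previously identified lines, GS32 differed by -0.52 from the mean of GS4 and GS9. For the other members the direction in each set was not fixed in this way, and the mean differences of Pot1a, Dkc1 and Terf2ip were negative in both sets. With a term for the mean of the fibroblast markers, the log2 fold change was -0.39, and without GS9 and GS32 it was -0.44. When left out in turn, the lines gave values from -0.56 without AI3 to -0.35 without AI10. The 1 added to FPKM shrinks the log2 fold change of a gene at so low a level. With 0.1 added instead, that of Tert was -0.69, and that of Pot1a was -0.50. The promoter of Tert (chr13:73626661-73626960, + strand, GRCm38.p6, RefSeq) is printed because Tert was the member with the most distinct AI groups, and capitals mark its pair of GC boxes (GGGCGG or its reverse complement CCGCCC), the site of the Sp1 family.
Tert promoter: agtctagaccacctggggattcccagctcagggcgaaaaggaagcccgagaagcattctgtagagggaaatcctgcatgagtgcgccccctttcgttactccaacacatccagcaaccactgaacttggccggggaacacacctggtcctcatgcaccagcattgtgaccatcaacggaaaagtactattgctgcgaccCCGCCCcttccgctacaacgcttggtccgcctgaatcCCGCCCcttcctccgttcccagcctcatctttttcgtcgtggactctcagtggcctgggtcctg

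Of the 9 genes, 7 were matched in the RefSeq promoter table (250 bases before to 50 after the start of the gene), and the motifs were searched on both strands. A GC box was found in 5 of the 7, those of Tert, Pot1a, Pot1b, Terf2 and Terf2ip, and in 35.9% of all 27025 promoters. The E-box CACGTG, which Myc and its partner Max bind, was in 0 of the 7 and in 7.24% of all promoters. The CRE letters TGACGTCA were in the Pot1a and Tinf2 promoters and in 1.88% of all. The telomere repeat TTAGGG was in the Pot1b promoter only and in 10.5% of all. No match overlapped another in the 7 promoters, and the matches describe the letters of the windows only.

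Dkc1 (chrX:72341193-72355116, + strand, mm9) encodes dyskerin, the pseudouridine synthase of H/ACA RNA particles, and was the most abundant member. Its exons share 45 bases (1.09%) with the gene Mpp1 on the other strand, an intron holds the small nucleolar RNA SNORA36, and 2 further copies of its coding sequence (at least 200 aligned bases at 85% identity or more) lie elsewhere in the genome. In AN F Dkc1 was 168.2 FPKM in AN1, 199.4 in AN9, 169.3 in AN15 and 203.9 in AN20, and in AN P it ranged from 143.1 in AN6 to 191.9 in AN2. The groups overlapped, with a log2 fold change of 0.13 (95% confidence interval -0.09 to 0.36). In AI F it was 150.8 in AI3, 180.7 in AI7, 123.1 in AI10 and 174.0 in GS32, against 153.1, 189.2 and 252.5 in AI9, GS4 and GS9 of AI P. GS9 was the highest and AI10 the lowest of all 16 lines. The log2 fold change of AI F against AI P was -0.32 (95% confidence interval -0.80 to 0.16). It was -0.13 without GS9, -0.18 without GS9 and GS32, and -0.06 with the fibroblast markers as a term, and it was -0.03 among newly derived lines.

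Of the shelterin proteins that bind double-stranded repeats, Terf1 (TRF1; chr1:15795739-15833551, + strand, mm9) ranged from 81.7 FPKM in AN1 to 113.6 in AN20 over the AN lines. Over the AI lines it was 77.6 in AI3, 121.9 in AI7, 83.9 in AI10, 93.0 in GS32, 90.7 in AI9 and 92.5 in GS4, against 224.7 in GS9. GS9 stood apart, and the other 15 lines lay between 77.6 and 121.9. The log2 fold change of AI F against AI P was -0.41 (95% confidence interval -1.20 to 0.38), and 0.02 without GS9. That of AN F against AN P was -0.02 (95% confidence interval -0.27 to 0.22). Terf2 (TRF2; chr8:109593300-109620447, - strand, mm9), which guards chromosome ends against fusion, was 12.4 to 17.9 FPKM over the AN lines and 11.7 to 19.0 over the AI lines. Its log2 fold changes were 0.01 in AN and 0.04 in AI, with 95% confidence intervals of -0.28 to 0.30 and -0.41 to 0.50. The AI value joins opposite differences. Among newly derived lines it was 0.44, with every AI F line above AI9. Among previously identified lines it was -0.41, with GS32 below GS4 and GS9. The ratio of Terf1 to Terf2 was between 4.88 and 9.18 in 15 lines and 16.2 in GS9. The coding sequences of Terf1 and Terf2 were 66.9% identical, with no shared run longer than 17 bases.

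Terf2ip (Rap1; chr8:114535259-114544428, + strand, mm9), the partner of Terf2, overlaps Gm6793 without shared exon bases and ranged over the AN lines from 8.36 FPKM in AN5 to 9.65 in AN7. In AI it was 7.87 in AI3, 9.04 in AI7, 7.07 in AI10, 8.66 in GS32 and 8.05 in AI9, against 11.3 in GS4 and 11.5 in GS9. GS4 and GS9 were above all other lines, whereas AI9, the third AI P line, was below 2 of the 4 AI F lines. The log2 fold change was -0.29 in AI (95% confidence interval -0.65 to 0.07) and -0.05 in AN (95% confidence interval -0.20 to 0.10). In AI it was -0.11 with the fibroblast markers as a term, -0.02 among newly derived lines, -0.23 without GS9 and GS32, and -0.44 without AI9. Tinf2 (TIN2; chr14:56295455-56300654, - strand, mm9), the hub of the complex, was 18.4, 24.8, 21.9 and 19.9 FPKM in AN1, AN9, AN15 and AN20 and 19.1 to 22.9 in AN P. It was 16.9, 19.4, 17.2 and 14.5 in AI3, AI7, AI10 and GS32, against 17.7, 20.9 and 22.6 in AI9, GS4 and GS9. Its exons share 232 bases (7.84%) with Gmpr2 on the other strand, and the libraries are not stated to keep strand, so reads of this stretch cannot be assigned to either gene. The log2 fold change was 0.02 in AN (95% confidence interval -0.20 to 0.24) and -0.25 in AI (95% confidence interval -0.56 to 0.06), and -0.11 in AI without GS9 and GS32. In AI it was 0.008 among newly derived lines and -0.55 among previously identified lines.

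Mice carry a pair of Pot1 genes, of which Pot1a is known to repress DNA damage signalling at telomeres and Pot1b to control the single-stranded overhang. Pot1a lies at chr6:25693737-25759246 (- strand) and Pot1b at chr17:55791323-55851926 (- strand; both mm9), and a U6 gene that overlaps Pot1b shares no exon bases with it. Their coding sequences were 79.1% identical with no shared run longer than 41 bases, and none of the 50-base windows of one matched the other exactly. Of 1710 aligned windows, 15 (0.877%) had at most 2 mismatches and the median was 10, so reads of about this length mostly tell the genes apart. The windows with the fewest (1) and the most (21) differences are shown with the differing bases in capitals, at coding positions 469 to 518 and 947 to 996.
Pot1a fewest: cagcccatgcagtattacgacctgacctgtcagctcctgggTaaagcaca
Pot1b fewest: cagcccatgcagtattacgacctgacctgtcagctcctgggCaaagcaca
Pot1a most: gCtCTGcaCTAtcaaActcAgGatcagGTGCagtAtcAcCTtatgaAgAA
Pot1b most: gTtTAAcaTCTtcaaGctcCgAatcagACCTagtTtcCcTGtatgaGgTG

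Pot1a was 9.93, 13.2, 9.56 and 12.8 FPKM in AN1, AN9, AN15 and AN20, and 11.3, 9.56, 11.2, 10.2 and 10.8 in AN2, AN3, AN5, AN6 and AN7. The AN groups overlapped, with a log2 fold change of 0.08 (95% confidence interval -0.16 to 0.33). In AI F it was 9.47 in AI3, 11.7 in AI7, 7.03 in AI10 and 10.2 in GS32, and the AI P lines AI9, GS4 and GS9 had 11.3, 13.6 and 15.7. AI7 was above AI9, so the groups overlapped by this pair of lines. The mean was 9.59 ± 1.94 FPKM for AI F (SD, n = 4), against 13.5 ± 2.203 for AI P (SD, n = 3), a log2 fold change of -0.46 ± 0.18 (SE; 95% confidence interval -0.90 to -0.03). It did not pass the adjusted threshold (unadjusted p = 0.0384, adjusted p = 0.521, limma; exact two-sided permutation test p = 0.114). With the fibroblast markers as a term the value was -0.25, and it was -0.27 among newly derived and -0.48 among previously identified lines. Without GS9 and GS32 it was -0.39, and leaving out each line in turn gave -0.58 without AI9 to -0.34 without AI10.

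Pot1b was 3.95, 4.69, 3.76 and 4.84 FPKM in AN1, AN9, AN15 and AN20, and 4.03, 3.67, 3.999, 3.58 and 3.24 in AN2, AN3, AN5, AN6 and AN7. All 4 AN F lines were above the median of AN P, and the groups overlapped (log2 fold change 0.17, 95% confidence interval -0.04 to 0.38; adjusted p = 0.636, limma). In AI it was 3.07 in AI3, 3.37 in AI7, 3.37 in AI10, 3.07 in GS32 and 3.20 in AI9, against 3.46 in GS4 and 3.85 in GS9, with a log2 fold change of -0.09 (95% confidence interval -0.34 to 0.16). The ratio of Pot1a to Pot1b was 3.54, 3.92 and 4.09 in AI9, GS4 and GS9, and between 2.09 and 3.47 in the 13 lines outside AI P. The ratio was chosen after its values were seen, so it is a description with no test. Its log2 difference was -0.39 between AI F and AI P, -0.40 without GS9 and GS32, and -0.27 with the fibroblast markers as a term. It was -0.13 between AN F and AN P. The promoters of the pair are shown so that those of the paralogs can be set side by side. Capitals mark GC boxes, the CRE letters in Pot1a (chr6:25809169-25809468, - strand) and the telomere repeat in Pot1b (chr17:55712587-55712886, - strand; both GRCm38.p6, RefSeq).
Pot1a promoter: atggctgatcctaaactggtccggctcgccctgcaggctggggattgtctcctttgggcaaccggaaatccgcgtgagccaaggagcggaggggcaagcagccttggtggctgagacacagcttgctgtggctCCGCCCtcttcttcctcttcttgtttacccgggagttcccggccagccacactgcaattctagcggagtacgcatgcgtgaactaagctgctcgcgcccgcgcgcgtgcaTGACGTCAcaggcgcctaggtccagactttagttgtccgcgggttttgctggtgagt
Pot1b promoter: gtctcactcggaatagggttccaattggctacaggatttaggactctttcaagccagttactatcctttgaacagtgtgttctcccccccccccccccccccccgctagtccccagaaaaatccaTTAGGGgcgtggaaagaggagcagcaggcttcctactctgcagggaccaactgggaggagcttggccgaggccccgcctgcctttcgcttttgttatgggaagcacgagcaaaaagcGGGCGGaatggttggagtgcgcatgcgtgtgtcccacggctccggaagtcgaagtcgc

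Rif1 (chr2:51928357-51977903, + strand, mm9), with 9 annotated transcripts of 2 to 36 exons, was the member that varied most among the AN lines. In AN F it was 38.3 FPKM in AN1, 59.7 in AN9, 42.5 in AN15 and 85.4 in AN20. In AN P it was 43.0 in AN2, 37.3 in AN3, 38.4 in AN5, 25.9 in AN6 and 41.7 in AN7. AN20 and AN9 were above all AN P lines, and AN1 and AN15 lay within their range. The mean was 56.5 ± 21.4 for AN F (SD, n = 4), against 37.3 ± 6.77 for AN P (SD, n = 5), a log2 fold change of 0.54 ± 0.24 (SE; 95% confidence interval 0.01 to 1.07). It did not pass the adjusted threshold (unadjusted p = 0.0476, adjusted p = 0.636, limma; exact two-sided permutation test p = 0.111). Without AN20 the log2 fold change was 0.32, and without AN1 it was 0.70. In AI the range was 38.1 to 53.8 FPKM, with GS4 the highest, and the log2 fold change was -0.06 (95% confidence interval -0.37 to 0.25). It was 0.16 among newly derived lines and -0.22 among previously identified lines.

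**Figure D2:**
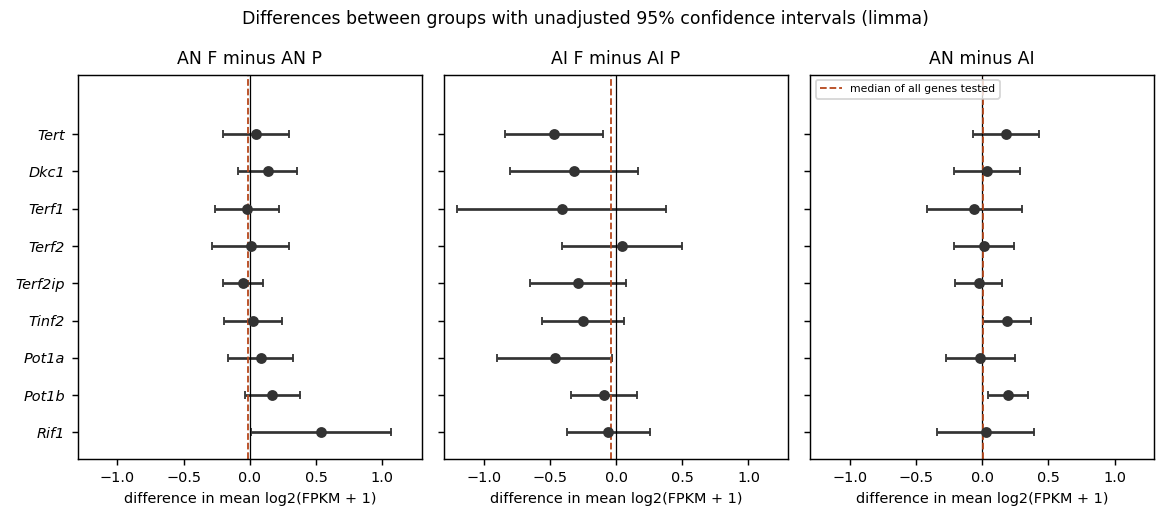
Difference in mean log2(FPKM + 1) of the 9 genes between AN F and AN P, between AI F and AI P, and between AN and AI (points, with 95% confidence intervals from limma that are not adjusted for multiple testing). The dashed line is the median of all 13185 genes tested. In AI, 8 of the 9 points lie left of 0, and the widest interval is that of Terf1.

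Across the members, 1 of 9 had an unadjusted p under 0.05 between AN F and AN P (Rif1, higher in AN F), beside 6.01% of all genes tested (3.02% higher and 2.99% lower in AN F). No member was without overlap between AN F and AN P, beside 0.584% of genes with all AN F lines above and 0.713% with all below. The log2 fold change was positive for 7 of the 9 with a median of 0.05, and the median of all genes was -0.01. Between AI F and AI P, 2 of 9 had an unadjusted p under 0.05 (Tert and Pot1a, both lower in AI F), beside 7.77% of all genes, 4.3% being lower in AI F. Here 8 of the 9 values were negative, Terf2 being the exception, with a median of -0.29 beside -0.04 for all genes, of which 55.9% were negative. All 10 fibroblast markers had values of the opposite sign in this comparison (median 1.04), and with them as a term the median of the members was -0.05 with 6 of 9 negative. Of the pluripotency markers, 7 of 10 had values of the same sign as most members (median -0.37). The median of the members was -0.13 without GS9 and -0.11 without GS9 and GS32, with 7 of 9 negative in both. The signs were not all alike in the newly derived lines (3 AI F and 1 AI P) and the previously identified lines (1 AI F and 2 AI P). With so few lines, derivation cannot be told apart from single lines or from passage. Among newly derived lines, Terf2 (0.44), Rif1 (0.16), Terf1 (0.03), Pot1b (0.02) and Tinf2 (0.008) had positive values. Those of Tert (-0.42), Pot1a (-0.27), Dkc1 (-0.03) and Terf2ip (-0.02) were negative. Among previously identified lines every member had a negative value. Quantile normalization turned the sign of Rif1 in AI (0.0081) and of Terf1 (0.014) and Terf2 (-0.0089) in AN, all close to 0. The 8 values are not independent, since GS9 was the highest of the 7 AI lines for Tert, Dkc1, Terf1, Terf2ip, Tinf2, Pot1a and Pot1b. AI9, the newly derived AI P line, was above all 3 newly derived AI F lines for Tert only.

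The question whether the difference between fully and partially reprogrammed lines was unlike in AI and AN was tested directly. The difference of the effects (AI minus AN) was -0.52 for Tert (95% confidence interval -0.93 to -0.11; unadjusted p = 0.0168, adjusted p = 0.290, limma), with an effect of -0.47 in AI and 0.05 in AN. It was -0.55 for Pot1a (95% confidence interval -0.98 to -0.11; adjusted p = 0.290, limma), with effects of -0.46 and 0.08. These 2 of 9 members had an unadjusted p under 0.05 for this term, beside 16.6% of all genes tested, and 0 genes passed the adjusted threshold. When F and P were exchanged within AN and within AI in all 4410 ways, the exact two-sided p was 0.0331 for Tert, 0.0367 for Pot1a and 0.0259 for Pot1b, and 0.0821 to 0.877 for the other 6. Of all genes tested, 13.0% had an exact p under 0.05 by the same exchange. The exchange assumes no difference between F and P in either method, so a small p does not by itself show that the methods differ. With the fibroblast markers as a term, the differences were -0.40 for Tert, -0.27 for Pot1a and -0.14 for Pot1b. Without GS9 and GS32 they were -0.49, -0.47 and -0.19. With 0.1 instead of 1 added to FPKM they were -0.755, -0.59 and -0.32.

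**Figure D3:**
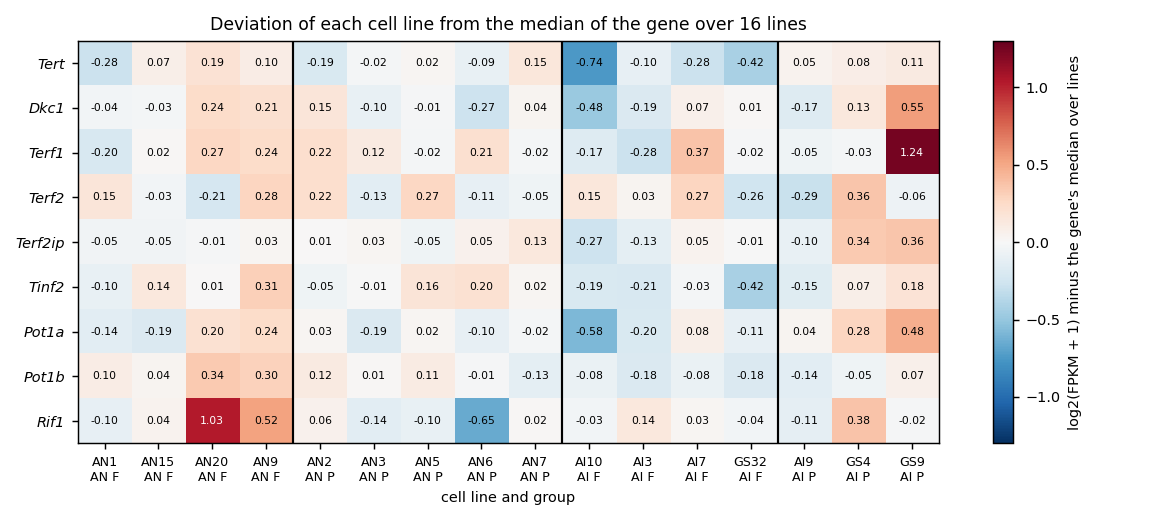
Each cell gives log2(FPKM + 1) of a gene (rows) in a line (columns, by group) minus the median of that gene over 16 lines, in colour and as a number. GS9 is 1.24 above the median for Terf1, AN20 is 1.03 above it for Rif1, and AI10 is 0.74 below it for Tert.

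Few lines held most of the extremes. GS9 was the highest of 16 lines for Dkc1, Terf1, Terf2ip and Pot1a and among the highest 3 for 6 members. For comparison, GS9 was the highest line for 19.6% of all genes tested. AI10 was the lowest for Tert, Dkc1, Terf2ip and Pot1a and among the lowest 3 for 6 members, and it was the lowest line for 14.5% of all genes. AN20 was the highest for Tert, Pot1b and Rif1, and it was the highest line for 12.6% of all genes. AN9 was above the median of the gene for all 9 members and among the highest 3 for 6 members. It was the highest for Tinf2, and the highest line for 3.69% of all genes. No share of all genes is given for a place among the highest or lowest 3 or above the median. AN20, AN9 and GS4 had the 3 highest values of Rif1. The summed FPKM of the fibroblast markers was 247.0 in GS9, 473.8 in AN9 and 533.0 in AN20, and 1158 in AI10. Across the 16 lines, the mean of these markers had a negative Pearson correlation with every member, from -0.27 for Rif1 to -0.78 for Pot1a. Within the 9 AN lines it ran from -0.73 for Tinf2 to 0.15 for Terf2ip, and within the 7 AI lines from -0.97 for Tinf2 to -0.37 for Rif1. The mean of the pluripotency markers had a positive correlation with every member across the 16 lines, from 0.21 for Tinf2 to 0.70 for Dkc1. Within the 7 AI lines it ran from 0.37 for Terf1 to 0.91 for Terf2ip. Within the 9 AN lines it ran from -0.35 for Tinf2 to 0.77 for Dkc1. The points share library and depth, and each value is a share of one library. The part of the fibroblast markers in the differences between groups was not tested beyond the fits with them as a term, in which the AI values of Dkc1, Terf1 and Tinf2 were -0.06, 0.06 and -0.05.

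**Figure D4:**
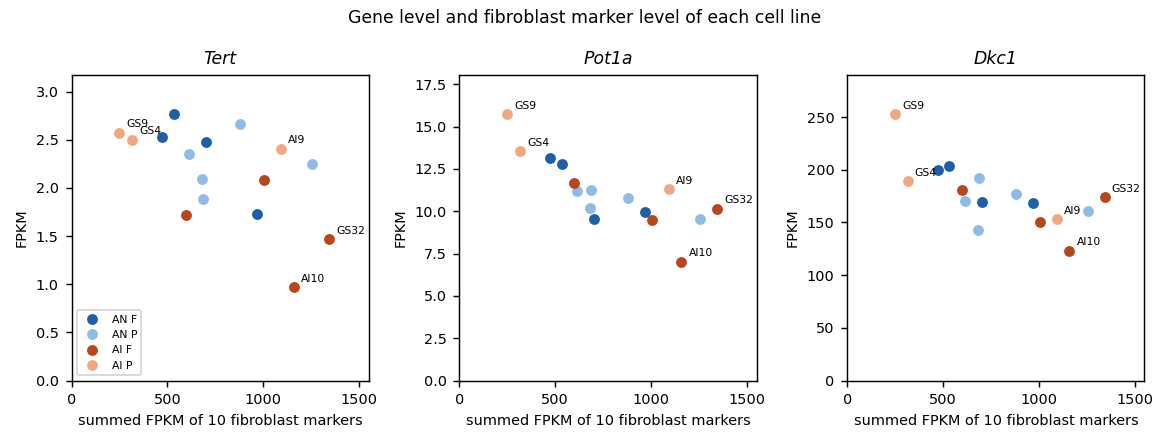
FPKM of Tert, Pot1a and Dkc1 (vertical axes from 0) against the summed FPKM of 10 fibroblast marker genes (horizontal axes), with 1 point per cell line, coloured by group. GS9 and GS4 have the lowest marker sums, at 247.0 and 314.7. AI9, of the same group, has a sum of 1093 and a Tert value of 2.41. Over the 7 AI lines, Tert has a Pearson correlation of -0.61 with the mean of these markers.

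Between the methods, AN lines were compared with AI lines as the labels give them. Here 2 of 9 members had an unadjusted p under 0.05, both higher in AN, beside 2.81% of all genes tested (1.96% higher in AN), and 0 members and 0 genes passed the adjusted threshold (limma). Pot1b was 3.97 ± 0.511 FPKM (SD, n = 9) in AN and 3.34 ± 0.270 (SD, n = 7) in AI, and 8 of 9 AN lines were above the AI median. Its log2 fold change was 0.19 ± 0.07 (SE; unadjusted p = 0.0157, adjusted p = 1.0, limma; exact two-sided permutation test p = 0.00664). Tinf2 was 21.0 ± 2.09 FPKM (SD, n = 9) in AN and 18.5 ± 2.70 (SD, n = 7) in AI, with all 9 AN lines above the AI median. By group, the mean of Tinf2 was 21.25 in AN F, 20.82 in AN P and 20.38 in AI P, against 17.0 in AI F. Its log2 fold change was 0.18 ± 0.09 (SE; unadjusted p = 0.0455, adjusted p = 1.0, limma; exact two-sided permutation test p = 0.0456). In both genes the groups overlapped, as they did in all 9 members. Of all genes, 0.0152% had every AN line above every AI line and 0.00758% every AN line below. For the other 7 members the log2 fold change lay between -0.06 for Terf1 and 0.18 for Tert, with intervals that included 0. The passages of AN and AI overlapped only from 6 to 7, and with passage as a term the values were 0.18 for Pot1b and 0.18 for Tinf2. Without GS9 and GS32 they were 0.21 and 0.18. Leaving out each line in turn gave 0.16 without AN20 to 0.22 without AN7 for Pot1b, and 0.13 without GS32 to 0.23 without GS9 for Tinf2.

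The partners of the members were taken from lists of 78 genes in all. Of the telomerase particle, 14 of 15 genes were tested, and 0 passed the adjusted threshold in either direction in any comparison. Terc, the template RNA, had a mean of 0.495 FPKM and was not tested. Its value was 0.178 to 0.212 in AN F, 0.186 to 0.803 in AN P, 0.221 to 0.429 in AI F and 0.662 to 2.19 in AI P, GS4 being the highest. Its mean lies below the level required for testing, and no order of the groups is read from these values. The study's methods do not say how RNA was selected for the libraries, so low values need not mean little Terc in the cells. The H/ACA proteins that accompany dyskerin had negative log2 fold changes in AN, whereas that of Dkc1 was positive. Gar1 was 93.1 ± 6.70 FPKM for AN F (SD, n = 4), against 115 ± 11.3 for AN P (SD, n = 5), with all AN F lines below all AN P lines, as for 0.713% of the genes tested (log2 fold change -0.30; unadjusted p = 0.00732, adjusted p = 0.636, limma). Nop10 had a log2 fold change of -0.34 and Nhp2 of -0.17. In AI the values were -0.22 for Gar1, -0.40 for Nop10 and -0.20 for Nhp2, and GS9 was the highest of all lines for the 3 genes. Without GS9 they were 0.037, -0.039 and -0.021, without GS9 and GS32 0.021, -0.017 and 0.0020, and with the fibroblast markers as a term 0.091, 0.097 and 0.076. Naf1, an assembly factor of the particle, followed Rif1 in its extremes, with 49.8 FPKM in AN20 and 42.9 in AN9 against 20.4 to 33.2 in the other lines. Its log2 fold change was 0.43 in AN and -0.24 in AI, and in AI -0.21 without GS9 and GS32 and -0.095 with the fibroblast markers as a term. Wrap53 (TCAB1), which brings the particle to Cajal bodies, was 8.53 to 12.6 FPKM with log2 fold changes of -0.02 and 0.05. The list median was -0.02 in AN and -0.20 in AI, and in AI it was 0.026 with the fibroblast markers as a term and -0.05 without GS9 and GS32. Smg6 had the smallest p of the list between AN and AI, with a log2 fold change of -0.09.

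Of the 12 genes of the CST complex and of shelterin partners, all were tested and 0 passed. Acd (TPP1), the shelterin member that recruits telomerase, was 9.46 to 20.1 FPKM over the 16 lines with log2 fold changes of -0.14 in AN and 0.17 in AI. The subunits of CST, which controls fill-in of the overhang, were at a mean of 15.6 FPKM for Ctc1, 11.6 for Stn1 and 8.58 for Ten1, and their log2 fold changes lay between -0.12 and 0.04 in AN and between -0.22 and -0.11 in AI. The smallest p belonged to Pola1 in AN (0.42), Prim1 in AI (-0.30), both of DNA polymerase alpha and primase, and Dclre1b (Apollo), a nuclease at telomeres, between AN and AI (0.08).

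Among 19 telomere repair genes, 0 passed the adjusted threshold. The median log2 fold change was 0.15 in AN, with 15 of 19 positive, and -0.24 in AI, with 17 of 19 negative. Of all genes tested, 53.6% were negative in AN and 55.9% in AI. With the fibroblast markers, all 10 of opposite sign in AI, as a term the AI median was -0.09 with 15 of 19 negative, and without GS9 and GS32 it was -0.23. Blm, a RecQ helicase, had the smallest p in AN (log2 fold change 0.29), and Mad2l2, which acts with Rif1 in limiting end resection, had it in AI (-0.32; unadjusted p = 0.0350, adjusted p = 0.521, limma). Mad2l2 was 9.68 ± 1.26 FPKM for AI F (SD, n = 4), against 12.3 ± 0.295 for AI P (SD, n = 3). All AI F lines were below all AI P lines for Mad2l2 and for Atr, a checkpoint kinase (-0.35, named after its values were seen), as for 3.19% of the genes tested. Without GS9 and GS32 the log2 fold change was -0.23 for Mad2l2 and -0.31 for Atr. With the fibroblast markers as a term it was -0.22 and -0.23. Ercc4, an endonuclease subunit, had the smallest p between AN and AI (0.11). Among 12 telomere chromatin genes the median was 0.14 in AN and -0.13 in AI, and in AI 0.024 with the fibroblast markers as a term. Smchd1, a chromatin protein of the SMC family, had the smallest p in AN (0.37), the histone methyltransferase gene Suv39h1 in AI (0.30) and Cbx5, which encodes HP1 alpha, between AN and AI (-0.15).

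Of 12 genes named as regulators of Tert transcription, 0 passed in any comparison, with a median of 0.12 in AN and 0.04 in AI. Myc, an activator of Tert in other settings, was 17.8 ± 2.38 FPKM for AI F (SD, n = 4), against 13.2 ± 2.17 for AI P (SD, n = 3), with all AI F lines above all AI P lines, as for 1.69% of the genes tested (log2 fold change 0.41; unadjusted p = 0.0298, adjusted p = 0.521, limma). Mnt, an antagonist of Myc, was also without overlap and higher in AI F (0.46). All AI F lines were below all AI P lines for E2f1 (-0.24) and Klf4 (-0.20), as for 3.19% of the genes tested. These 3 genes were named after their values were seen. Without GS9 and GS32 the log2 fold change was 0.33 for Myc and 0.38 for Mnt. With the fibroblast markers as a term it was 0.28 and 0.30. Which factors the insertion holds is not given in the sources used here. Nfx1, a repressor in some settings, had the smallest p in AN (0.26), and Men1 between AN and AI (0.18). Zscan4 genes, which are active in brief bursts in embryonic stem cells and are linked with telomere lengthening, were variable. Zscan4c was 0.178 to 4.23 FPKM in AN F, 0.350 to 4.28 in AN P, up to 2.096 in AI F and 1.62 to 12.8 in AI P, GS4 being the highest. Its log2 fold change was 0.44 in AN and -1.36 in AI (adjusted p = 0.758 and 0.521, limma). The AI value was -0.58 without GS4, -1.77 without GS9, -1.82 without GS9 and GS32, and -1.07 with the fibroblast markers as a term. Zscan4f had the smallest p of the list in AN (0.49). Tcstv1 and Tcstv3 were listed at 0 in all lines.

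**Figure D5:**
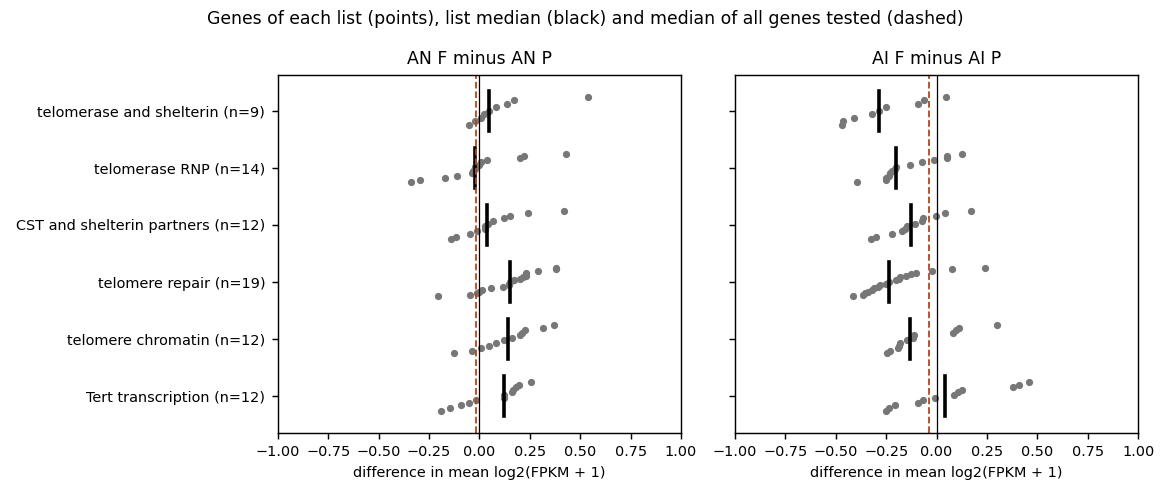
Differences in mean log2(FPKM + 1) between AN F and AN P (left) and between AI F and AI P (right) for the genes of each list (points), with the list median in black and the median of all genes tested as a dashed line. The telomere repair list has a median of 0.15 in AN and -0.24 in AI, and the telomerase and shelterin genes 0.05 and -0.29.

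Between members, the closest pair over 16 lines was Dkc1 and Pot1a (Pearson r = 0.90, and 0.85 without GS9), followed by Terf2ip and Pot1a (0.79). Of these pairs, Dkc1 and Pot1a kept r = 0.80 in the 9 AN lines and 0.93 in the 7 AI lines, whereas Terf2ip and Pot1a had 0.08 in AN and 0.92 in AI. Tert was closest to Pot1a (0.69, and 0.46 without AI10). Terf2 was the least like the others, with r between -0.14 and 0.36. Outside the members, the genes whose levels over the 16 lines were most like a member, by Pearson correlation, were Sirt4, Tubd1 and Ccdc114 for Tert (0.90, 0.88 and 0.88) and Polr3g, Dnajc21 and Ppil4 for Dkc1 (0.96, 0.96 and 0.96). They were Cetn3, Tgds and Tom1l1 for Terf1 (0.96, 0.95 and 0.94), Prmt7, Cenpt and D230025D16Rik for Terf2 (0.93, 0.93 and 0.92) and Cfdp1, Zfp330 and Las1l for Terf2ip (0.96, 0.95 and 0.94). For Tinf2 they were Edem2, Flad1 and Drg2 (0.89, 0.86 and 0.85), for Pot1a Trub1, Mphosph8 and Ttc33 (0.98, 0.96 and 0.96), for Pot1b Depdc1a, Fam108b and Rps15a (0.91, 0.90 and 0.89), and for Rif1 Zfp292, Btaf1 and Atad5 (0.97, 0.97 and 0.96). They are the highest of all genes tested and were chosen for their likeness, so the values carry no test.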

How the data were processed

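RNA of 16 lines was sequenced (single-end, 50 nt), and the authors deposited 1 table of FPKM values per gene and line. Per the labels and the study's methods, TopHat 2.1.0 and Cufflinks 2.2.1 were used with mm9. The submitters' notes also name HTSeq, whose role is not given in the sources used here. FPKM does not keep counts, so no count model was run, and strand is not stated.

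Lines were grouped by title. Values were taken as log2(FPKM + 1). The 13185 genes whose mean FPKM was 0.5 or more were tested with limma 3.58.1 (R 4.3.3), with a trend of variance on mean, and p-values were adjusted over all of them by Benjamini-Hochberg. The main fits held only the lines compared. Single genes were also tested by exact two-sided permutation of lines (scipy 1.17.1). The fit was tested on simulated data. Alternatives changed the pseudocount, filter, scaling, trend, prior, covariates and lines. Those of the difference between effects and of the list values were added after the data were seen.

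The members and lists were chosen with earlier results of these data known. The genes named were the 9 members, their core partners, in each comparison the gene of every list whose p was smallest, and the 3 genes most like each member. Gar1, Nop10, Nhp2, Naf1, Wrap53, Acd, Terc, Ctc1, Stn1 and Ten1 were the core partners, and Ctc1, Stn1 and Ten1 stood in the table under older symbols. Gene positions and overlaps came from GENCODE annotation of mm9, compared with Biopython 1.88 and BLAST 2.17.0, and promoters from RefSeq.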

Additional observations from a re-analysis of the deposited data

Results flagged for a closer look

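Terf1 in GS9 stood at 224.7 FPKM among the 7 AI lines, where the other 6 lay between 77.6 and 121.9. Its gap to the nearest line, as a share of the range, was above the 95% critical value of Dixon's test. This was 1 of 45 groups tested, and chance alone flags about 1 in 20.

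For 3 of 9 members the exact p was under 0.05 when F and P were exchanged within each method, beside 13.0% of all genes tested. This exchange assumes no difference between F and P in either method, so a small p does not by itself show that the methods differ. The difference of the effects (AI minus AN) was -0.52 for Tert (exact p = 0.0331), -0.55 for Pot1a (exact p = 0.0367) and -0.26 for Pot1b (exact p = 0.0259). None passed the threshold after adjustment over all genes tested (adjusted p = 0.290, 0.290 and 0.319, limma), 0 of all genes tested did, and 16.6% had an unadjusted p under 0.05. Leaving out each line in turn gave -0.62 to -0.40 for Tert, -0.66 to -0.42 for Pot1a and -0.31 to -0.21 for Pot1b. The summed fibroblast markers ran from 598.7 to 1342 FPKM in AI F and from 247.0 to 1093 in AI P, and with them as a term the differences were -0.40, -0.27 and -0.14.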

How the results depend on the processing

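Over 820 values of the members under alternatives, 760 kept their direction, 60 changed it, and 0 passed the adjusted threshold, the smallest adjusted p being 0.0739 (limma). The values that changed direction were those of members near 0 or, for Terf1, those that rest on GS9, and the cause was not tested. With quantile normalization, AN F minus AN P was 0.014 for Terf1 and -0.0089 for Terf2, and AI F minus AI P was 0.0081 for Rif1. With the fibroblast markers as a term, it was -0.019 for Terf2 and -0.027 for Tinf2 in AN, 0.058 for Terf1 and 0.0093 for Rif1 in AI, 0.014 for Pot1a between AN and AI, and 0.094 for Terf1 in the difference of the effects. With passage as a term, AN minus AI was 0.035 for Terf2ip and 0.031 for Pot1a. Without the 3 previously identified lines it was 0.12 for Terf1, 0.12 for Terf2ip and 0.15 for Pot1a. Without GS9 and GS32 it was 0.12 for Terf1, -0.062 for Terf2, 0.031 for Terf2ip, 0.0615 for Pot1a and -0.0030 for Rif1, AI F minus AI P was 0.016 for Terf1, and the difference of the effects was 0.037 for Terf1.

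Leaving out each line in turn gave, in AN, -0.084 to 0.073 for Terf1, -0.071 to 0.095 for Terf2, -0.0077 to 0.15 for Tert and -0.051 to 0.086 for Tinf2. In AI it gave -0.16 to 0.086 for Rif1, -0.63 to 0.017 for Terf1 and -0.10 to 0.22 for Terf2. Between AN and AI it gave -0.044 to 0.13 for Dkc1, -0.11 to 0.066 for Pot1a, -0.092 to 0.12 for Rif1, -0.13 to 0.12 for Terf1, -0.039 to 0.070 for Terf2 and -0.076 to 0.028 for Terf2ip. In the difference of the effects it gave -0.61 to 0.039 for Terf1 and -0.11 to 0.22 for Terf2. For list values in AI, whose alternatives were added after the data were seen, leaving out each line gave -0.39 to 0.037 for Gar1 and a median of -0.036 to 0.078 for the genes of Tert transcription. Without GS9 and GS32 these were 0.021 and -0.0090, and Nhp2 was 0.0020. With the fibroblast markers as a term Gar1 was 0.091, Nop10 0.097 and Nhp2 0.076, and the medians of the telomerase particle and telomere chromatin were 0.026 and 0.024.

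At an unadjusted p under 0.05 the counts were 1 member and 792 genes in AN, 2 and 1025 in AI, 2 and 370 between AN and AI, and 2 and 2194 for the difference of the effects. At the adjusted threshold, where the counts were 0 genes, leaving out lines gave 0 to 1 genes in AN, 0 to 5 in AI (5 without GS9), 0 to 2 between AN and AI, and 0 to 651 for the difference of the effects (651 without AI9 and 1 without AN1). Without GS9 and GS32 the counts were 6 in AI and 1 between AN and AI, without the 3 previously identified lines 2, and with the fibroblast markers as a term 3 between AN and AI. The smallest exact p that the AI lines allow is 0.0571, which limits that comparison.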
